A study of Mus musculus with 6 samples.

Results

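The genes of mitosis were compared between mouse embryo fibroblasts that carry a mutated MDMX and fibroblasts with wild-type MDMX, all of them without p53. The 36 genes described here encode the kinases and cyclins of mitotic entry, the spindle checkpoint, the kinetochore, the spindle, the machinery of cytokinesis, and the proliferation genes Top2a and Mki67. They were chosen by symbol for their known function, and no measured value entered the rule, although earlier results of these data were known. All 36 were found among the 49315 genes of the count files, and all 36 were among the 16068 genes with enough reads to test. Fibroblasts homozygous for the MDMX-SG knock-in (p53-/-;MDMXSG/SG), in which MDMX carries the substitutions W201S and W202G, were represented by the lines SG1, SG2 and SG3. Fibroblasts with wild-type MDMX (p53-/-;MDMXWT/WT) were represented by the lines WT3, WT9 and WT11. All 6 lines were of the C57BL/6 strain, were grown without treatment in DMEM with serum to passage 4, and lacked p53, the controls included. Each line came from 1 embryo, so the replicate is the embryo and each line is 1 culture. The comparison asks whether mutating the part of MDMX that binds the kinase CK1-alpha is accompanied by other transcript levels in cells that have no p53.

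Mitosis begins when cyclin B activates the kinase Cdk1. The anaphase-promoting complex, with its activator Cdc20, ends it by marking cyclin B and the proteins that hold sister chromatids together for destruction, and the spindle checkpoint delays this until every chromosome is attached. Transcripts of mitotic genes accumulate together late in the cell cycle: the MuvB complex binds a promoter element called the cell cycle genes homology region (CHR), and it represses these genes in resting cells as part of DREAM and activates them with B-Myb (gene Mybl2) and Foxm1 in dividing cells. Many such promoters also carry CCAAT boxes bound by NF-Y. MDMX is best known as an inhibitor of p53, and p53 represses mitotic genes through p21 (gene Cdkn1a) and DREAM. That arm lacks p53 in all 6 lines. Because RNA came from whole cultures, a smaller share of dividing cells and less transcript per dividing cell cannot be told apart here.

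The libraries held between 49317925 and 65457242 reads assigned to genes. The smallest count of a mitotic gene in any line was 1165 and the largest was 29638, so that counting error was at most 2.93% of a value. Fibroblast transcripts were abundant in every line, with Col1a1 between 5453 and 6954 CPM, the read count relative to the scaled library size. The fibroblast markers Dcn and Lum were far lower, at 599 to 1019 and 121 to 155 reads per line. Of the 12 fibroblast markers, 3 were lower in the SG lines past the threshold by edgeR (Thy1, Twist2 and Prrx1). Of 11 tested macrophage and blood cell markers, 0 passed the threshold by edgeR and 0 had an unadjusted p below 0.05. Their summed level was 34.2, 38.0 and 82.1 CPM in SG1, SG2 and SG3, and 44.1, 42.5 and 14.8 CPM in WT3, WT9 and WT11. Of the tested markers of other cell types, 0 passed the threshold by edgeR, and an unadjusted p below 0.05 was reached by 3 of 6 epithelial, 1 of 4 endothelial, 2 of 3 skeletal muscle and 4 of 6 neural and glial markers. The summed level of the epithelial markers was 54.0 to 102 CPM in the SG lines and 69.8 to 96.4 CPM in the WT lines. Most of it was Krt19, at 2057 to 4613 reads per line and a log2 fold change (SG minus WT) of -0.422. The other tested epithelial markers, 5 in number, were above 0. Cldn4 had 1048 reads in SG1 and 1207 in SG2, but 255 in SG3 and 169 to 678 per WT line. Krt5, which was not tested, had 162 reads in SG1, 107 in SG2 and 0 in every other line. The summed level of the endothelial markers was 52.5 to 72.2 CPM in the SG lines and 39.1 to 54.0 CPM in the WT lines. The skeletal muscle markers summed to 18.2 to 28.7 CPM in the SG lines and 10.1 to 18.8 CPM in the WT lines. Des, which muscle shares with other cells of mesenchymal origin, had 460 to 1386 reads per line, while the muscle regulators Myod1, Myog and Myf5 had at most 1, 3 and 11. The neural and glial markers summed to 454 to 476 CPM in the SG lines and 307 to 397 CPM in the WT lines. Most of this sum was Nes, at 13992 to 27426 reads per line. By log2 fold change, 3 of these markers were above 0 and 3 below. Sox2 was lower in the SG lines, with 12 to 29 reads per line against 39 to 234 (log2 fold change -2.89). The part of such cells in the values below was not tested. Xist, the transcript of the inactive X chromosome, was abundant in SG1 (399 CPM) and WT9 (343 CPM) and at most 0.700 CPM in the other 4 lines, which places 1 female line in each genotype.

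The promoters are shown first, because the letters of the CHR and of the CCAAT box were both found in most of the genes that could be searched. RefSeq windows of 300 bases, from 250 before to 50 after the annotated start, were found for 31 of the 36 genes. Aurkb, Ccna2, Dlgap5, Kif20a and Tpx2 had no window in the table. Both strands were searched for the CHR as TTTGAA or TTCGAA and for the NF-Y box as CCAAT. The last base of a CCAAT box can also be the first base of CHR letters that follow it. CHR letters were found in 25 of the 31 genes (80.6%) and in 19.2% of all 32851 windows, or 13.8% of the 14438 windows of tested genes. CCAAT was found in 24 of the 31 genes (77.4%) and in 37.4% of all windows. Both were found in 22 genes (71%) against 7.52% of all windows. At least 2 CCAAT boxes were present in 17 genes (54.8%) against 11.7% of all windows. The letters of an E2F site, TTTCCCGC or TTTGGCGC, were found in 1 gene, Kif18a, and in 1.56% of all windows. Birc5, Nuf2, Kif18a and Nusap1 had neither CHR letters nor CCAAT in the window. The cyclin B gene Ccnb1 and the kinetochore motor Cenpe had CCAAT without CHR letters, and Ndc80, Kif2c and Anln had CHR letters without CCAAT. A RefSeq start can lie inside the gene as counted. The stretch around the Kif2c start (chr4:117178753-117178952, minus strand) lay inside the gene, which begins at 117182639. That of Kif4 (chrX:100625885-100626084, plus strand) lay inside a gene that begins at 100625737. A match of letters is a description of the sequence, not a binding site.

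Excerpts of 200 bases around the start sites of 5 genes, from RefSeq on GRCm38.p6, show the arrangement. All 5 genes lie on the minus strand and are printed 5′ to 3′ on that strand, with CHR letters and CCAAT boxes on either strand in capitals (CCAAT on the other strand reads ATTGG). Cdk1 (chr10:69352893-69353092), Ccnb2 (chr9:70421535-70421734) and Cdc20 (chr4:118437324-118437523) carry both elements. Ccnb1 (chr13:100786467-100786666) carries 2 CCAAT boxes alone. Nuf2 (chr1:169531445-169531644), the gene with the lowest SG to WT ratio of the 36, carries neither in this stretch.
Cdk1: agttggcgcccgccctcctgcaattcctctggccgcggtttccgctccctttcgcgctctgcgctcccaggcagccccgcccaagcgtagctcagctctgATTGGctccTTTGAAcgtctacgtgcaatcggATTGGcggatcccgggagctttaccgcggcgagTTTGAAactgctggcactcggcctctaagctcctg
Ccnb2: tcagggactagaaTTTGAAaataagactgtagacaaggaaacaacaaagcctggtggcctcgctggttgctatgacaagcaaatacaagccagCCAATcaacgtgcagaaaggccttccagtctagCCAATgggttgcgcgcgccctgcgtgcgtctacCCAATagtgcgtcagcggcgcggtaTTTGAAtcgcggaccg
Cdc20: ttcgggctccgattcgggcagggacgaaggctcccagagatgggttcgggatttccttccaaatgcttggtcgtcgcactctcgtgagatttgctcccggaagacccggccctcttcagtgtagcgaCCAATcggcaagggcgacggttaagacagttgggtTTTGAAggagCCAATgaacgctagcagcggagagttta
Ccnb1: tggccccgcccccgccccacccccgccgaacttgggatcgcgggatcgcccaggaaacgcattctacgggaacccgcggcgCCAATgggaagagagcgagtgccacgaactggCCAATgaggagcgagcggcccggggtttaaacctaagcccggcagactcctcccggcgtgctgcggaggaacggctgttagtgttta
Nuf2: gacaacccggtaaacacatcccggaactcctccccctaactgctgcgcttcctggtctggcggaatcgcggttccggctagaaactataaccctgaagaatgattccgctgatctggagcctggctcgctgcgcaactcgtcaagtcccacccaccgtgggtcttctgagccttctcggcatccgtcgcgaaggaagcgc

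**Figure D1:**
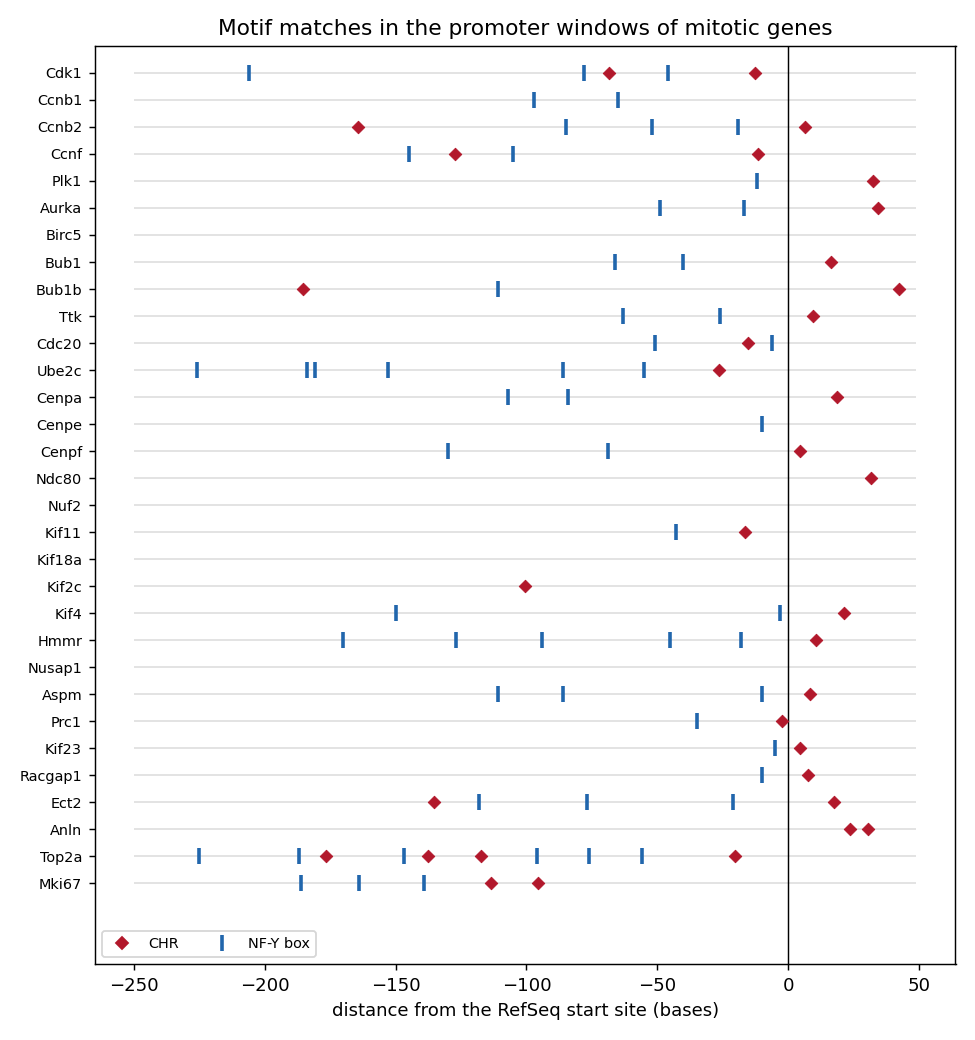
Positions of CHR letters and CCAAT boxes relative to the annotated start (x axis, bases) in the promoter windows of the 31 mitotic genes with a RefSeq window (y axis, 1 row per gene). CHR letters are found in 25 genes and CCAAT boxes in 24, and the rows of Birc5, Nuf2, Kif18a and Nusap1 hold neither.

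The letters also sat close to the start. CHR letters between 50 bases before and 20 bases after the start were present in 18 of the 31 genes (58.1%) against 4.18% of all windows, and CCAAT in 16 genes (51.6%) against 11.3%. The 22 genes with both elements had a median log2 fold change of -0.054 between genotypes and the other 9 genes a median of -0.069. No test was made of this difference.

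None of the 36 mitotic genes passed the threshold between genotypes. By edgeR's quasi-likelihood test, with p-values adjusted over all tested genes and a threshold of 0.05, 306 of 16068 genes (1.90%) were called, and 0 of the mitotic genes. By DESeq2 and by limma-voom 0 were called as well. An unadjusted p below 0.05 was reached by 3 of the 36 (8.33%) with edgeR, 2 with DESeq2 and 3 with limma-voom, against 2487 of all tested genes (15.5%) with edgeR. The 3 genes were Nuf2, Kif11 and Cenpf, and the smallest adjusted p of the set was 0.244.

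Although none was called, the values leaned to one side. The log2 fold change (SG minus WT) was below 0 for 32 of the 36 genes (88.9%), or 29 with upper quartile scaling and 31 with RLE scaling, and for 49.3% of all tested genes. Kif18a, Aspm, Kif20a and Kif23 were above 0. The median over the set was -0.065, which is 1.05-fold lower in the SG lines, and the median over all tested genes was 0.0017. The values ran from -0.14 for Nuf2 to 0.045 for Kif18a. In 11 genes (30.6%) every SG line was below every WT line, against 1797 of all tested genes (11.2%), and no mitotic gene had every SG line above every WT line. Without overlap in either direction, all tested genes gave 21.2%. These 11 genes were Nuf2, Kif11, Hmmr, Ndc80, Prc1, Dlgap5, Aurka, Cenpf, Ccnf, Cdk1 and Mki67. They share the same 6 libraries and are not independent of each other.

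The intervals around the 36 estimates were narrow. The standard errors ran from 0.031 to 0.064 on the log2 scale, with a median of 0.043 against 0.085 for all tested genes. All 36 of the 95% intervals lay within 0.26 of 0. The outermost bounds among the 36 were 1.19-fold lower and 1.13-fold higher in the SG lines.

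**Figure D2:**
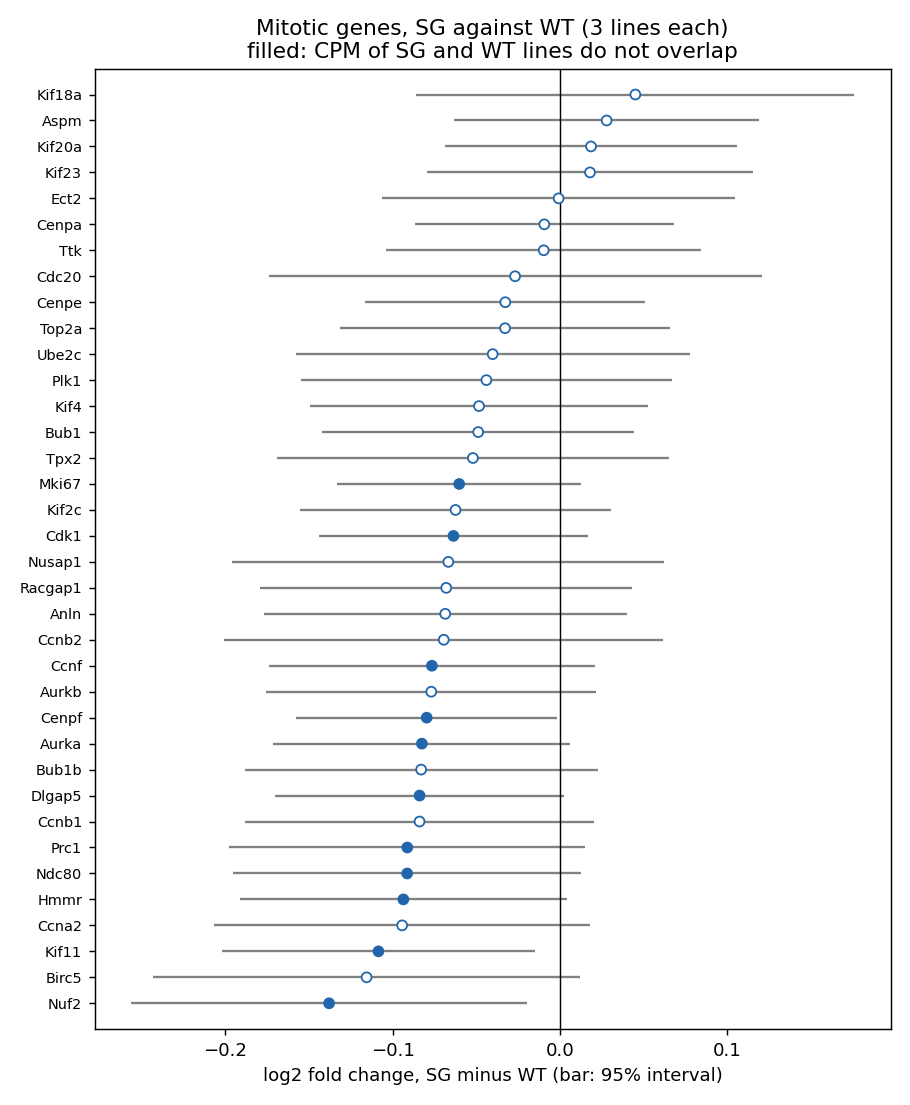
Log2 fold change of SG against WT (x axis) of the 36 mitotic genes (y axis, ordered by fold change), with 95% intervals from edgeR's quasi-likelihood fit of 3 lines per genotype. Filled points mark genes whose CPM did not overlap between the SG and WT lines. The points run from -0.14 for Nuf2 to 0.045 for Kif18a, and 32 of 36 lie below 0 (29 with upper quartile scaling).

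The mitotic genes differed between single lines in the same direction: all 36 were above their own mean in WT11, and 32 were below it in SG1. For each gene the log2 CPM of a line was set against the gene's mean over the 6 lines, and these deviations were averaged over the set. The mean deviation was -0.056 in SG1, -0.012 in SG2 and -0.014 in SG3, and it was 0.0082 in WT3, -0.011 in WT9 and 0.085 in WT11. WT11 was thus the highest line and SG1 the lowest, while WT9 lay close to SG2 and SG3. By genotype the mean deviation was -0.027 ± 0.024 in SG and 0.027 ± 0.051 in WT (SD, n = 3 lines each). WT11 was the highest line for 30 of the 36 genes. Over all tested genes WT11 was the highest line for 3529 of 16068 and the lowest for 3602. SG1 was the lowest line for 20 of the 36 genes and the highest for 0. Over all tested genes SG1 was the lowest for 2742 and the highest for 2786.

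The excess of WT11 ran from 0.021 for the checkpoint kinase gene Ttk to 0.17 for the survivin gene Birc5. The deviation of SG1 ran from -0.13 for Ccnb2 to 0.036 for Aspm. The median absolute difference over the 36 genes was 0.149 between WT11 and SG1, and 0.093 and 0.099 between WT11 and the other WT lines WT3 and WT9. Between WT3 and WT9 it was 0.033, and between SG2 and SG3 it was 0.038. The order of WT11 at the top and SG1 at the bottom was the same under RLE, upper quartile and library total scaling.

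Without WT11 the median log2 fold change between genotypes was -0.040 rather than -0.065, and 26 of the 36 genes remained below 0. Without SG1 the median was -0.045, with 30 below 0. Each genotype had 1 female line. SG1 minus WT9, the female lines, gave a median of -0.052 with 28 genes below 0. SG2 and SG3 minus WT3 and WT11, the male lines, gave -0.066 with 31 below 0. The first of these sets 1 line against 1 line and has no replicate. It holds SG1, the lowest line, and the second holds WT11, the highest, so both medians rest partly on those lines. The summed macrophage and blood cell markers were lowest in WT11 (14.8 CPM), where the mitotic genes were highest. They stood at 34.2 CPM in SG1, where the mitotic genes were lowest. They were highest in SG3 (82.1 CPM), where the mean deviation of the mitotic genes was -0.014, against -0.012 in SG2 (38.0 CPM). The part of these markers in the result was not tested.

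**Figure D3:**
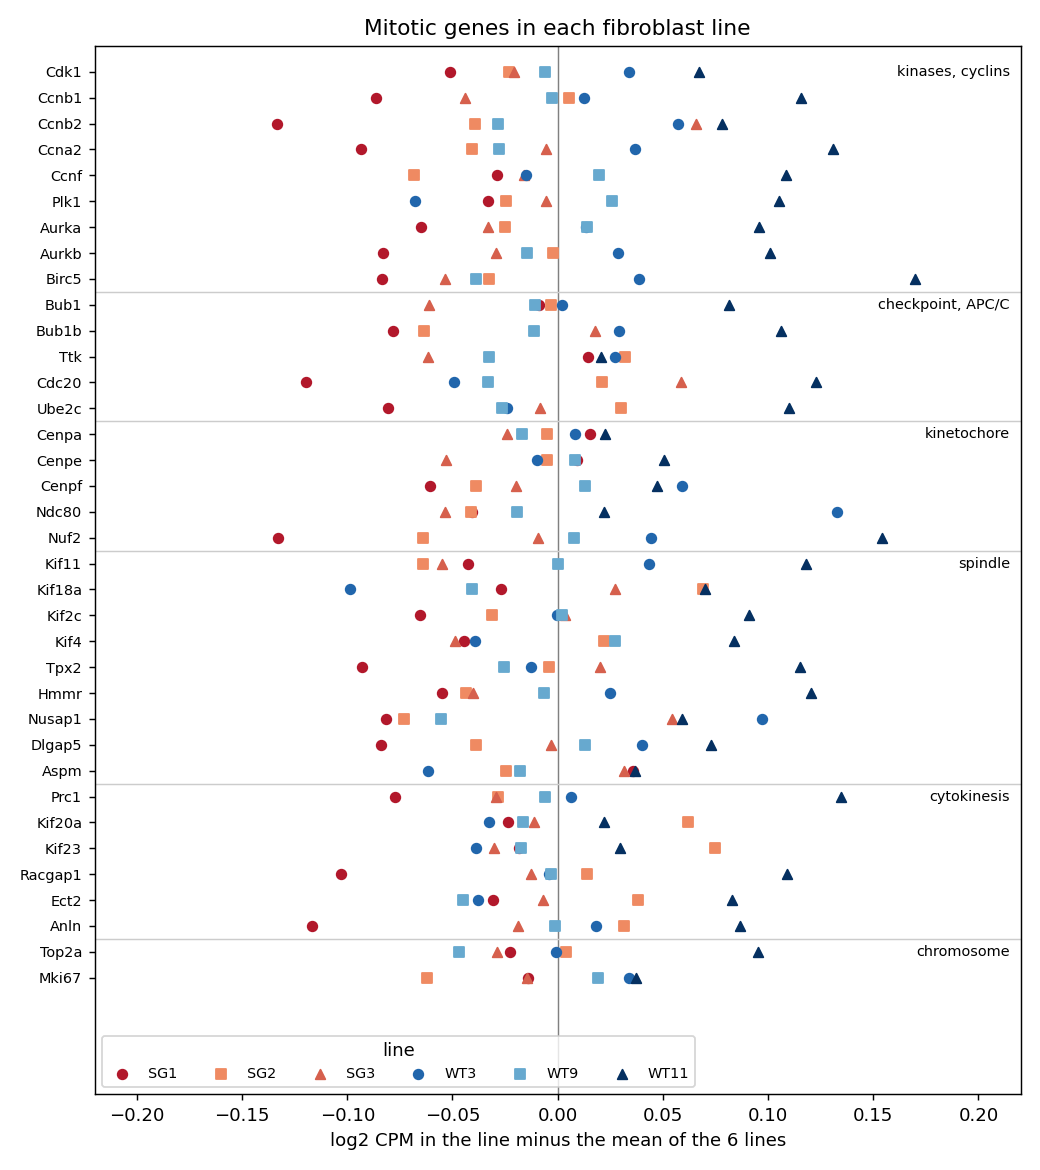
Deviation of log2 CPM from the gene's mean over the 6 lines (x axis) for each of the 36 mitotic genes (y axis). Colour and symbol mark the line. All 36 genes are above 0 in WT11. The mean over the 36 genes, which is not drawn, is lowest in SG1 at -0.056.

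The size of the spread over lines was compared with that of genes of like abundance. The median SD of log2 CPM over the 6 lines was 0.061 for the 36 genes and 0.060 for the 6277 tested genes within the same range of mean level, 24.98 to 462 CPM. In 16 of the 36 genes the SD was below that median. The highest line exceeded the lowest by 1.13-fold in the median gene, from 1.03-fold in Cenpa to 1.22-fold in Nuf2.

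The kinases and cyclins that drive mitotic entry numbered 9, and all 9 had a log2 fold change below 0, with a median of -0.077 and 0 called. Cdk1 (ENSMUSG00000019942, chromosome 10, 69336635 to 69352938 on GRCm38), the kinase activated by cyclin B, stood at 156, 159 and 159 CPM in SG1, SG2 and SG3, and at 165, 160.5 and 169 CPM in WT3, WT9 and WT11. Every SG line was below every WT line, but WT9 exceeded the highest SG line only slightly, and the log2 fold change was -0.064 with a standard error of 0.035 (adjusted p = 0.449). Ccnb1 (ENSMUSG00000041431, chromosome 13, 100778650 to 100786570), which encodes cyclin B1, stood at 151, 161 and 155 CPM in the SG lines and at 161, 159.7 and 173 CPM in the WT lines. The genotypes overlapped, with SG2 above WT9, and WT11 was the highest line.

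Plk1, the polo-like kinase that acts from mitotic entry to cytokinesis, stood at 138, 139 and 141 CPM in SG1, SG2 and SG3 and at 135, 144 and 152 CPM in the WT lines. WT3 was the lowest of all 6 lines, so the genotypes overlapped. Aurka, the kinase of spindle poles, stood at 92.0, 94.6 and 94.1 CPM in the SG lines and at 97.2, 97.2 and 103 CPM in the WT lines. These groups did not overlap, and the log2 fold change was -0.083 (adjusted p = 0.363). Aurkb, the kinase of the chromosomal passenger complex, stood at 55.9, 59.1 and 58.0 CPM in the SG lines and at 60.4, 58.6 and 63.5 CPM in the WT lines. SG2 was above WT9, and the other SG lines were below every WT line.

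Birc5 (ENSMUSG00000017716, chromosome 11, 117849251 to 117855743), which encodes survivin of the same complex, stood at 79.5, 82.4 and 81.2 CPM in the SG lines and at 86.6, 82.0 and 94.8 CPM in the WT lines. SG2 was above WT9, while WT11 was the highest line. Its log2 fold change of -0.12 (standard error 0.055, adjusted p = 0.378) was the lowest of the set after Nuf2. Of the 3 other genes in this group, Ccnf, which encodes cyclin F, did not overlap, with a mean of 53.8 ± 1.01 CPM over the SG lines and 56.7 ± 2.53 CPM over the WT lines (SD, n = 3 each). The cyclin B2 gene Ccnb2 had a log2 fold change of -0.069 and Ccna2, the cyclin A2 gene, one of -0.094, with overlapping lines in both.

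The spindle checkpoint and the ubiquitin machinery of anaphase numbered 5 genes, all below 0 (Ttk at 0.00037 with upper quartile scaling) with a median of -0.040, 0 called and none without overlap. Bub1, a checkpoint kinase at kinetochores, stood at 98.5, 98.9 and 94.96 CPM in the SG lines and at 99.2, 98.3 and 105 CPM in the WT lines. WT9 lay below SG1 and SG2. Cdc20 (ENSMUSG00000006398, chromosome 4, 118432901 to 118437352), the activator of the anaphase-promoting complex, stood at 135, 149 and 153 CPM in the SG lines and at 142, 144 and 160.1 CPM in the WT lines. SG1 was the lowest line and WT11 the highest, and SG2 and SG3 were above WT3 and WT9.

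Cdc20 was also the gene with the third largest spread over lines, and its log2 fold change of -0.027 had the widest standard error of the set, at 0.064. Ube2c, the ubiquitin-conjugating enzyme that works with the complex, stood at 120.1, 129.7 and 126 CPM in the SG lines and at 125, 125 and 137 CPM in the WT lines. SG2 and SG3 were above WT3 and WT9. Bub1b (BUBR1) had a log2 fold change of -0.083 and Ttk (the kinase MPS1) one of -0.0096, and the lines of both overlapped.

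The kinetochore and centromere genes numbered 5, and all 5 were below 0 (Cenpa at 0.00079 with upper quartile scaling) with a median of -0.080. Here 3 did not overlap (60%, against 21.2% of all tested genes), and 0 passed the threshold after adjustment. An unadjusted p below 0.05 by edgeR was reached by 2 of the 5 (40%, against 15.5% of all tested genes). With 5 genes from the same 6 libraries, these shares were not tested. Nuf2 (ENSMUSG00000026683, chromosome 1, 169497934 to 169531464) and Ndc80 encode partners in the complex that couples kinetochores to microtubules. Nuf2 stood at 59.3, 62.2 and 64.6 CPM in SG1, SG2 and SG3, and at 67.02, 65.4 and 72.3 CPM in WT3, WT9 and WT11. SG1 was the lowest line and WT11 the highest, and every SG line was below every WT line. The log2 fold change was -0.14 with a standard error of 0.051 and a 95% interval of -0.26 to -0.020 (adjusted p = 0.244).

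Ndc80 stood at 50.1, 50.1 and 49.7 CPM in the SG lines and at 56.5, 50.9 and 52.4 CPM in the WT lines. The SG lines were below every WT line and had an SD of 0.248 CPM, and here WT3, not WT11, was the highest line. Cenpa (ENSMUSG00000029177, chromosome 5, 30666777 to 30674830), the histone variant that marks centromeres, stood at 86.7, 85.5 and 84.4 CPM in the SG lines and at 86.3, 84.8 and 87.2 CPM in the WT lines. The genotypes overlapped. It was the gene with the smallest spread over lines, with an SD of 0.019 on the log2 scale, and its log2 fold change was -0.0093. Cenpe, a kinetochore motor, stood at 139, 138 and 133 CPM in the SG lines and at 137, 139 and 143 CPM in the WT lines. SG3 was the lowest line and WT11 the highest, the other lines overlapped, and its spread over lines was the second smallest. Cenpf, a kinetochore and nuclear matrix protein, had a mean of 80.2 ± 1.15 CPM over the SG lines and 84.8 ± 1.41 CPM over the WT lines (SD, n = 3 each), without overlap, and its log2 fold change was -0.080 with a 95% interval of -0.16 to -0.0015 (adjusted p = 0.312).

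The spindle motors and assembly factors numbered 9, with 7 below 0, a median of -0.062 and 0 called. Kif11 (ENSMUSG00000012443, chromosome 19, 37376403 to 37421859), the kinesin that pushes spindle poles apart, stood at 113, 112 and 112 CPM in the SG lines and at 120.4, 117 and 127 CPM in the WT lines. The SG lines nearly coincided and lay below every WT line. The log2 fold change was -0.11 with a standard error of 0.040 and a 95% interval of -0.20 to -0.015 (adjusted p = 0.247). Tpx2, which activates Aurka on the spindle, stood at 219, 232 and 236 CPM in the SG lines and at 231, 229 and 253 CPM in the WT lines. SG1 was lowest and WT11 highest, and the lines in between mixed.

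Kif18a (ENSMUSG00000027115, chromosome 2, 109280738 to 109341747), the kinesin that limits chromosome oscillation, had the highest log2 fold change, 0.045, at 24.5, 26.2 and 25.4 CPM in the SG lines and 23.3, 24.3 and 26.2 CPM in the WT lines. The genotypes overlapped across most of their range, and the adjusted p was 0.765. Aspm, a spindle pole protein, stood at 66.0, 63.3 and 65.8 CPM in the SG lines and at 61.7, 63.6 and 66.1 CPM in the WT lines. It was second with 0.028, and WT11 was again its highest line. Among the other 5, Hmmr and Dlgap5 did not overlap, with log2 fold changes of -0.094 and -0.084, while Kif2c, Kif4 and Nusap1 overlapped, with values between -0.067 and -0.048.

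Cytokinesis was represented by 6 genes, of which 4 were below 0 (Ect2 above 0 with RLE and upper quartile scaling), with a median of -0.034, 1 without overlap and 0 called. Prc1, which bundles microtubules of the central spindle, stood at 178, 184 and 184 CPM in the SG lines and at 188, 187 and 206 CPM in the WT lines. WT11 stood well above the rest, and every SG line was below every WT line by a small margin. Prc1 overlaps Rccd1 on the opposite strand over 4381 of its 8225 exon bases. Without the strand setting, reads of both cannot be told apart. Rccd1 had 2468 reads over the 6 lines against 66205 for Prc1. How reads in the shared bases were counted is not known, so these totals do not show how far Prc1 was affected. Kif20a, a kinesin of the central spindle, stood at 176, 187 and 177 CPM in the SG lines and at 175, 177 and 182 CPM in the WT lines. SG2 was its highest line and the genotypes overlapped, with a log2 fold change of 0.019. It overlaps Cdc23 on the opposite strand over 2518 of its 3796 exon bases, and Cdc23 had 31777 reads against 63184 for Kif20a.

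Anln, the scaffold anillin of the contractile ring, stood at 313, 347 and 335 CPM in the SG lines and at 343, 339 and 360.1 CPM in the WT lines. SG1 stood lowest, and SG2 was above WT3 and WT9. Kif23 and Racgap1, partners in the central spindle complex, had log2 fold changes of 0.018 and -0.068, and Ect2, the exchange factor they recruit, had -0.00072. Top2a, which untangles sister chromatids, stood at 455, 463 and 453 CPM in the SG lines and at 462, 447 and 494 CPM in the WT lines. WT9 was its lowest line and WT11 its highest. Mki67, the proliferation marker Ki-67, stood at 331, 320.1 and 331 CPM in the SG lines and at 342, 339 and 343 CPM in the WT lines. The groups did not overlap, with a log2 fold change of -0.060 and a standard error of 0.031 (adjusted p = 0.423).

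Levels of different genes were compared per length, as FPKM computed from the counts (reads scaled to the exon length and the library size). The mean over the 6 lines ran from 78.8 for Cdc20 down to 2.54 for Kif18a. The median over the set was 23.9 against 3.74 for all tested genes. Cdc20 was followed by Plk1 at 64.3, Top2a at 51.3, Tpx2 at 49.9, Ube2c at 48.9, Kif20a at 47.1 and Cdk1 at 46.8. The next levels were Ccna2 at 46.3, Ccnb2 at 40.1, Aurka at 38.1 and Ccnb1 at 38.0. Of the 35 neighbours in this order, 26 pairs had overlapping ranges over the 6 lines. The ranges separated after Cdc20, after Plk1, after Ccna2, after Anln, after Mki67, after Cenpa, after Nuf2, after Ttk and after Cenpf. Cenpf and Aspm, with large gene models, stood at 5.34 and 5.56. The exon lengths are the union of all exons in the files, so a gene with unused exons is understated.

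**Figure D4:**
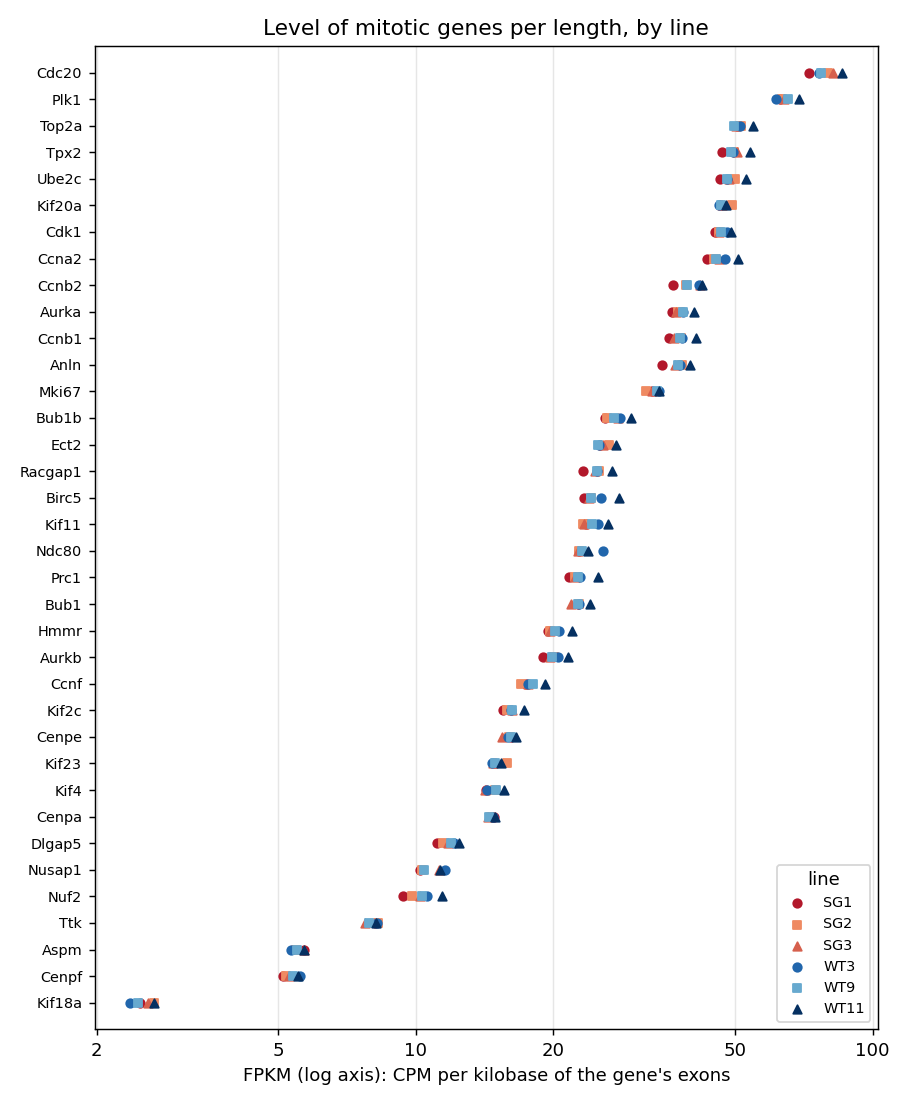
Level of the 36 mitotic genes in FPKM (x axis, log scale) in each of the 6 lines, ordered by the mean over lines (y axis). Cdc20 at a mean of 78.8 stands highest and Kif18a at 2.54 lowest.

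Other gene lists with a bearing on mitosis were set beside the 36. Of 70 further mitotic genes, 0 were called by edgeR and 7 had an unadjusted p below 0.05. Their median log2 fold change was -0.038, with 51 below 0, and the lines of both genotypes did not overlap in 14 (20%), near the 21.2% of all tested genes. WT11 was the highest line for 46 of the 70. Among 16 subunits of the anaphase-promoting complex, 0 were called and 0 had an unadjusted p below 0.05, the median was -0.026 and 11 were below 0. Among 36 DNA replication genes, 0 were called and 7 had an unadjusted p below 0.05, the median was -0.053 with 30 below 0, and WT11 was the highest line for 28. The mean deviation in WT11 was 0.092 in the replication list and 0.069 in the further mitotic genes.

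Among 31 regulators of these genes, 0 were called by edgeR and 7 had an unadjusted p below 0.05, with a median of -0.024, 18 below 0 and 13 above 0. The lines did not overlap in 8 (25.8%, against 21.2% of all tested genes), with SG above WT in 3 and below in 5. The smallest adjusted p of the list, 0.0758, was that of Cdkn2a, which was higher in the SG lines (log2 fold change 0.298) without overlap. Foxm1, the activator of mitotic genes, stood at 130.2, 135 and 127 CPM in the SG lines and at 137, 141 and 146 CPM in the WT lines. The groups did not overlap, and the log2 fold change was -0.11 with a standard error of 0.040 (adjusted p = 0.223). Mybl2, its partner on CHR promoters, stood at 64.0, 72.6 and 61.4 CPM in the SG lines and at 66.8, 67.3 and 75.2 CPM in the WT lines. The lines overlapped (log2 fold change -0.080, adjusted p = 0.664). Cdkn1a stood at 10.4, 10.1 and 12.7 CPM in the SG lines and at 11.8, 11.7 and 11.9 CPM in the WT lines. SG3 was its highest line, and the other SG lines were below every WT line (adjusted p = 0.713). This list holds activators and inhibitors, and its deviations in WT11 went both ways, from -0.39 to 0.16 with a median of 0.020. Of the 31 regulators, 18 were above their own mean in WT11, and it was the highest line for 8, Foxm1 and Mybl2 among them.

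**Figure D5:**
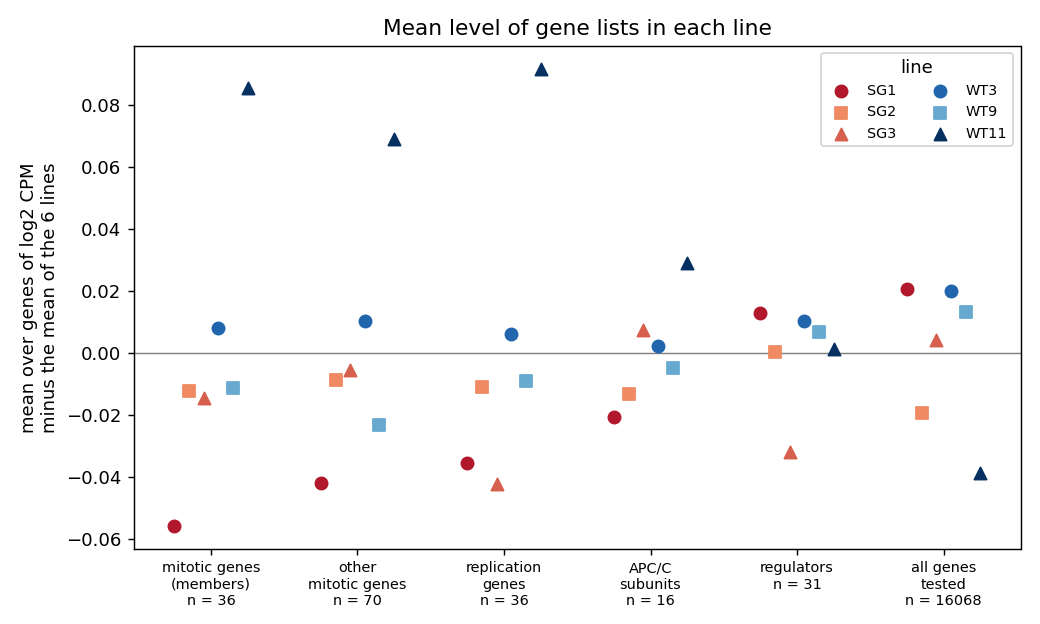
Mean deviation of log2 CPM from each gene's mean over the 6 lines (y axis) for the mitotic genes, the other lists and all tested genes (x axis). Colour and symbol mark the line. The mean in WT11 is 0.085 for the mitotic genes, 0.069 for the further mitotic genes, 0.092 for the replication genes and 0.0012 for the regulators, whose single values go both ways.

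Exons of 11 of the 36 overlap those of another gene. For Ccnf and Top2a the other gene lay on the same strand, over 8 and 122 bases, and had 1 and 0 reads. For the rest it lay on the opposite strand, and the strand setting of the counting was not given in the sources used here. Besides Prc1 and Kif20a, the longest overlaps were those of Kif4 with Pdzd11, over 1366 bases, and of Ccna2 with Exosc9, over 910 bases. Processed copies took few reads, with 28 to 45 per line for the Ccnb1 pseudogene and 41 to 60 for that of Ccnb2.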

How the data were processed

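Poly(A)-selected RNA was sequenced from 6 fibroblast lines, 3 per genotype, with group and line number taken from the sample titles. The authors deposited raw counts per gene, as whole numbers without normalisation, in the layout of featureCounts per the file headers. Per the submitters' processing notes, the tools were Trimmomatic 0.36, STAR 2.5.2b with GRCm38, featureCounts from Subread 1.5.2, and DESeq2. Annotation release, strand setting and treatment of multimapping reads are not given in the sources used here. Symbols came from GENCODE M21, in which 48970 of 49315 identifiers had one and 33 of the 36 mitotic genes had the same start and end. No batch term was fitted, since no litter, culture date or run is given.

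Counts were filtered with filterByExpr, scaled by TMM and tested 2-sided with edgeR 4.0.16 in R 4.3.3 (glmQLFit, glmQLFTest, no covariate), with Benjamini-Hochberg adjustment over all 16068 genes tested and a threshold of 0.05. "Adjusted p" means this value. CPM use TMM-scaled library sizes, deviations use log2 CPM with a prior count of 2, and FPKM use the exon lengths in the files. The test was checked on simulated data. Alternatives were RLE, upper quartile and total scaling, no filter and a filter of 1 CPM in 3 lines, DESeq2 1.42.0, limma-voom 3.58.1, a robust prior, Xist as a covariate, and leaving out lines.

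The 36 genes and the other lists were chosen with earlier results of these data known. CPM of each line are given for genes past the threshold, the 3 highest and 3 lowest log2 fold changes, the 3 largest and 3 smallest SDs over lines, and a fixed list of well-known members; of the other lists, for Foxm1, Mybl2 and Cdkn1a. Promoters came from RefSeq on GRCm38.p6.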

Additional observations from a re-analysis of the deposited data

How the results depend on the processing

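In the 16 alternatives run, 0 of the 36 mitotic genes were called in any, and their smallest adjusted p ran from 0.162 (Xist as a covariate) to 0.516 (without WT11). Their median log2 fold change stayed below 0 in each, from -0.085 without WT9 to -0.040 without WT11. No gene of the set crossed the threshold. The count of all genes called was 306, and it was 959 without the filter, 952 with DESeq2 and 703 without both lines that express Xist, and from 3 (without SG2) to 579 (without SG1) when 1 line was left out. Values near 0 changed sign. Ect2 was 0.00033 with RLE scaling, 0.0095 with upper quartile scaling, 0.0043 with the 1 CPM filter and 0.00020 with limma-voom. With upper quartile scaling Ttk was 0.00037 and Cenpa 0.00079. Cdc20 was 3.97e-05 without both Xist lines. With 1 line left out in turn, the log2 fold change ran from -0.063 to 0.031 for Cdc20, from -0.024 to 0.043 for Ect2, from -0.0074 to 0.036 for Kif20a, from -0.015 to 0.039 for Kif23 and from -0.029 to 0.018 for Ttk. It ran from -0.020 to 0.0011 for Cenpa, from -0.086 to 0.00038 for Plk1, from -0.065 to 0.0076 for Ube2c and from -0.064 to 0.0094 for Top2a; the upper end of each, Ttk excepted, came without WT11. The cause was not tested. No paired analysis was made, since neither litter nor any pairing of the lines is given. With 3 lines per genotype the standard errors of the set were 0.031 to 0.064 on the log2 scale, which limits how small a difference could pass the threshold.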
